A study of Homo sapiens with 3 samples.

Results

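The genes of cohesin, of its loader, of its PDS5 cofactors and of the insulator protein CTCF were followed through RNA 5′-end counts of HEK293 cells, a long-established line derived from human embryonic kidney. The set holds 10 genes, taken by name from a count table of 17595 listed human genes: SMC1A, SMC3, RAD21, STAG1, STAG2, CTCF, NIPBL, MAU2, PDS5A and PDS5B. All 10 were listed, and each had counts in each of the 3 libraries. The libraries form 1 group of cells grown in DMEM with serum, and no label names a genetic change, an agent or a time point. Each library came from 1000 lysed cells, of which the share of 100 cells went through 18 cycles of PCR, and the libraries are called 20, 21 and 23 after the index in their column headings. Nothing in the labels says whether they came from separate cultures, so the p-values from limma below cover no more than the variation among these 3 libraries, some or all of which may be technical. Binomial intervals cover counting error only.

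Cohesin is a ring that holds sister chromatids together until anaphase and extrudes chromatin loops in interphase. The ATPases SMC1A and SMC3 form its long arms, the kleisin RAD21 closes the ring, and STAG1 or STAG2 binds RAD21, so that 1 complex carries 1 of these paralogs. NIPBL and MAU2 make up the loader that brings the ring onto DNA and stimulates its ATPase, PDS5A and PDS5B bind RAD21 and act both in the release of the ring and in its protection, and CTCF, a zinc finger protein, halts loop extrusion at its binding sites.

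Total counts were 1532672, 1384172 and 1601555 in libraries 20, 21 and 23, and 1 count equalled 0.678, 0.751 and 0.647 counts per 1000000 endogenous counts (CPM), the unit of level used below. All 6 genes chosen to mark HEK293 (NEFL, NEFM, VIM, KRT8, KRT18 and LIN28B) averaged at least 10 CPM, as did 44.6% of all listed genes. Of the markers of other cell types, 0 of 3 endothelial and 0 of 4 germ line markers were listed.

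A count here is taken at the 5′ end of an RNA, where reverse transcription from the poly(A) tail ends and switches to the template-switching oligonucleotide, so the bases around each start are where these counts were taken. Starts were taken from a RefSeq promoter table on GRCh38.p14 with entries for 9 of the 10 genes (all but RAD21). That is not the build of the count table (hg19), and the counts do not tell which start was used. In the stretch from 250 bases before to 50 after a start, all 9 genes held a GC box (GGGCGG on either strand), as did 48.3% of the 27305 genes with an entry. None of the 9 held TATAAA on either strand, against 14.0% of all genes, and 4 of them, the paralogs STAG1, STAG2, PDS5A and PDS5B, held CCAAT on either strand, against 39.7%. The letters GCCATNTTG, on either strand, were searched for after the sequences had been seen and stood in 4 of the 9 genes, against 3.56% of all genes. In none of these 4 genes did a GC box, CCAAT or TATAAA overlap it. These are matches of letters, not sites of binding. The 4 windows of 30 bases that carry the last match are shown because it begins within 30 bases of the annotated start in each, and capitals mark it:
SMC3 (chr10:110567676-110567705, plus strand): ccacgagcgccGCCATTTTGtttggctgag
CTCF (chr16:67562542-67562571, plus strand): accgcgccgccGCCATTTTGtgtctgagcc
PDS5B (chr13:32586441-32586470, plus strand): gagcgcttggcGCCATTTTGaagcggagag
MAU2 (chr19:19320845-19320874, plus strand): gttgtggaggcCAAAATGGCggctcaggcg
The match begins 8 bases before the start in SMC3, at the first base of the RNA in PDS5B and at base 28 in CTCF and MAU2, and MAU2 carries it on the opposite strand.

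For the paralogs that the counts compare most directly, the 150 bases before the start are printed, with GC boxes and CCAAT on either strand in capitals. STAG2 has 3 annotated starts, of which the first along the gene is given:
STAG1 (chr3:136752379-136752528, minus strand): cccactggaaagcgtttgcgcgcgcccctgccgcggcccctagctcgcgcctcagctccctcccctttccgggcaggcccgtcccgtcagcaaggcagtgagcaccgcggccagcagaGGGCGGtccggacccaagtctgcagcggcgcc
STAG2 (chrX:123960410-123960559, plus strand): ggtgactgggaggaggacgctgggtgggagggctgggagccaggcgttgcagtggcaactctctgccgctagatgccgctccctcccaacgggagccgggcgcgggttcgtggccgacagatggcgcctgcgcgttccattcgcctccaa
PDS5A (chr4:39977912-39978061, minus strand): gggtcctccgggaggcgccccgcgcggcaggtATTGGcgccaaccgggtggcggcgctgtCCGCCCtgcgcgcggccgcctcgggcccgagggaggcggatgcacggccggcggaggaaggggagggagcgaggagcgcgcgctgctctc
PDS5B (chr13:32586302-32586451, plus strand): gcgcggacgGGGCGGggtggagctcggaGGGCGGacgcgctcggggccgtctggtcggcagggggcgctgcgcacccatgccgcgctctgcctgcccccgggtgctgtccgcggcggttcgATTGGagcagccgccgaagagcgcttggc
The windows of STAG1, PDS5A and PDS5B hold 1, 1 and 2 GC boxes, and the window printed for STAG2 holds neither a GC box nor CCAAT, while that of start 3 of this gene holds 2 GC boxes. Over the whole promoter stretch of 300 bases, G and C made up 71.3% in STAG1, 67.3% at this start of STAG2, 76.0% in PDS5A and 75.7% in PDS5B.

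The 10 genes lay between the 70.1 percentile (PDS5B) and the 92.5 percentile (SMC1A) of listed genes by mean level. Each averaged at least 10 CPM, as did 44.6% of listed genes. Of the 10, SMC1A and STAG2 averaged at least 100 CPM, as did 1743 of the 17595 listed genes. Their median was 42.9 CPM, against 7.16 CPM over all listed genes. Together they took 0.0636% of endogenous counts in library 20, 0.0585% in library 21 and 0.0666% in library 23. Set against the spiked control RNAs, which were added at 20000 molecules per cell, these sums stood for 330.0, 292 and 368 molecules per cell, if spikes and cellular RNAs were captured alike.

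**Figure D1:**
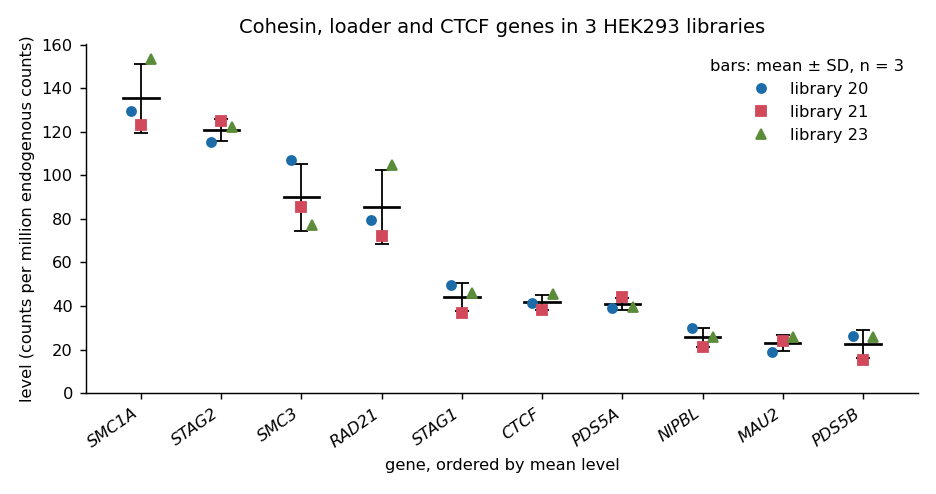
Level of each of the 10 genes (y axis, counts per 1000000 endogenous counts) in libraries 20, 21 and 23 (points), ordered by mean level along the x axis, with bars for mean ± SD over the 3 libraries. SMC1A and STAG2 lie between 115 and 153 CPM, SMC3 and RAD21 between 72.1 and 107 CPM, and the other 6 genes between 15.0 and 49.5 CPM.

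Of the ring itself, SMC1A, the ATPase that pairs with SMC3, was counted most. Its level was 129 CPM in library 20, 123 in library 21 and 153 in library 23, a mean of 135 ± 15.9 CPM (SD, n = 3), and it ranked 1323 among all listed genes. SMC3, the second ATPase, whose acetylation locks cohesin onto replicated DNA, had 107, 85.7 and 77.0 CPM, a mean of 89.9 ± 15.5 CPM. RAD21, the kleisin that separase cuts at anaphase, had 79.3, 72.1 and 105 CPM, a mean of 85.4 ± 17.2 CPM. The levels of SMC3 and RAD21 overlapped, with SMC3 higher in libraries 20 and 21 and RAD21 higher in library 23. SMC1A stood above both in each library. RAD21 overlaps UTP23 on the opposite strand, a gene with 81, 63 and 65 counts.

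The STAG subunits, which bind RAD21 and set part of where cohesin sits, were unequal. STAG2 had 115, 125 and 122 CPM, a mean of 121 ± 4.95 CPM, and was the member with the smallest spread relative to its level (a coefficient of variation of 4.10%). STAG1 had 49.5, 36.8 and 45.9 CPM, a mean of 44.1 ± 6.53 CPM. The highest STAG1 level lay far below the lowest STAG2 level.

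STAG2 exceeded STAG1 in 3 of 3 libraries, with per-library log2 ratios of 1.21, 1.75 and 1.41. The mean log2 ratio was 1.46 ± 0.27 (SD, n = 3), a 2.74-fold excess with a 95% interval of 2.01 to 3.75 (limma adjusted p = 1.1e-07). That p was adjusted over all 11423 genes tested against STAG1, of which 22.4% were called higher than STAG1. Its spread was moderated over these genes, which all share the STAG1 counts of the 3 libraries. STAG2 supplied 170 of 243 STAG counts in library 20, or 70.0% (95% exact binomial interval 63.8 to 75.7). It supplied 166 of 215 in library 21, or 77.2% (71.0 to 82.6), and 189 of 260 in library 23, or 72.7% (66.8 to 78.0). The 3 intervals overlap, and each lies above an even split. Annotated transcripts of both genes are alike in length (6.05 kb for STAG2 and 6.06 kb for STAG1), and their longest identical run is 21 bases, so reads longer than that differ between them. STAG1 overlaps PCCB on the opposite strand, a gene with 124, 121 and 140 counts, and since the use of strand in counting is not given, the counts of these overlapping genes may not be cleanly separated.

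**Figure D2:**
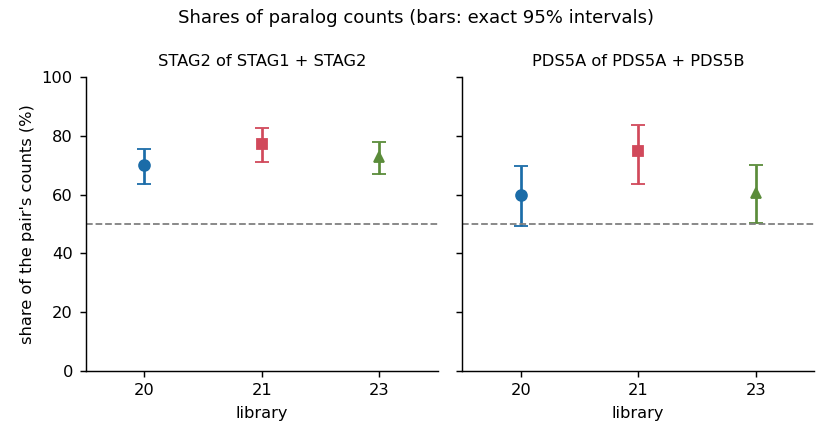
Share of each pair's counts (y axis, %) taken by STAG2 of STAG1 + STAG2 (left) and by PDS5A of PDS5A + PDS5B (right) in libraries 20, 21 and 23, with 95% exact binomial intervals for counting error; the dashed line marks an even split. STAG2 holds 70.0 to 77.2% and its intervals stay above the line, whereas the PDS5A interval of library 20 (49.3 to 69.6%) reaches it.

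PDS5A and PDS5B, the cofactors that act with WAPL in releasing cohesin and with sororin in keeping it closed, also differed. PDS5A had 39.3, 44.3 and 39.5 CPM, a mean of 41.0 ± 2.86 CPM, and PDS5B had 26.4, 15.0 and 25.9 CPM, a mean of 22.4 ± 6.43 CPM. Each PDS5A level was above each PDS5B level. The mean log2 ratio of PDS5A over PDS5B was 0.90 ± 0.55 (SD, n = 3), a 1.87-fold excess with a 95% interval of 1.19 to 2.94 (higher in 3 of 3 libraries, limma adjusted p = 0.011), while 33.8% of the 11423 genes tested were called higher than PDS5B. The per-library log2 ratios were 0.57, 1.54 and 0.60, so library 21, where PDS5B had only 20 counts, stood apart. Without library 21 the ratio was 0.58 (limma adjusted p = 0.019), and with no minimum count in the fit the call was lost (limma adjusted p = 0.067). PDS5A took 59.8% of the pair's counts in library 20 (95% exact interval 49.3 to 69.6), 74.7% in library 21 (63.6 to 83.8) and 60.4% in library 23 (50.2 to 70.0). These 3 intervals overlap. Of the 2 paralog pairs, PDS5A/PDS5B had the wider spread between libraries, with a share of 65.0 ± 8.43% for PDS5A against 73.3 ± 3.66% for STAG2. The PDS5 pair also had fewer counts (97, 79 and 101, against 243, 215 and 260 for the STAG pair), so its counting error was larger. The difference between the pairs was not tested. The longest identical run between the PDS5 transcripts is 20 bases.

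Core stoichiometry was read against SMC3, because each cohesin ring holds 1 SMC3 protein. RNA levels were compared, not proteins. Counts were taken at 5′ ends and were not divided by transcript length, and whether a count stands for a read or a molecule is not given in the labels. Among the 4 slots of the core, counts of SMC1A, SMC3, RAD21 and the STAG pair were shared as 28.4 ± 1.83%, 19.0 ± 3.51%, 17.9 ± 2.56% and 34.7 ± 1.59% (SD, n = 3). An equal supply of RNA would give each slot the same share. SMC3 held 22.3% of core counts in library 20 (95% exact interval 19.3 to 25.5), 19.4% in library 21 (16.2 to 22.8) and 15.3% in library 23 (12.8 to 18.0). The intervals of libraries 20 and 23 do not overlap, but they are not adjusted for the number of intervals compared. Between libraries 20 and 23 the level of SMC3 was not called different (exact binomial adjusted p = 0.43). RAD21 held 16.5% (13.8 to 19.4), 16.3% (13.4 to 19.5) and 20.8% (18.0 to 23.8).

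The summed STAG genes exceeded SMC3 in 3 of 3 libraries by a mean log2 ratio of 0.89 ± 0.25, or 1.85-fold with a 95% interval of 1.27 to 2.68 (limma adjusted p = 0.0015). SMC1A exceeded SMC3 by 0.60 ± 0.36, or 1.51-fold with an interval of 1.04 to 2.19 (higher in 3 of 3 libraries, limma adjusted p = 0.034), and 11.8% of all genes tested were called higher than SMC3. The SMC1A call was lost without library 21 (log2 ratio 0.63, limma adjusted p = 0.095), without library 23 (0.40, limma adjusted p = 0.17) and with no minimum count (limma adjusted p = 0.089). RAD21 was not called different from SMC3, with -0.08 ± 0.46 as the mean log2 ratio (limma adjusted p = 0.79), with an interval from 0.65-fold to 1.37-fold. Its per-library log2 ratios were -0.43, -0.25 and 0.44, so library 23 went the other way.

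SMC1A has the longest annotated transcript of the core, 9.78 kb against 4.11 kb for SMC3 and 3.75 kb for RAD21. Per kilobase of transcript, a scale added after the data were seen, SMC1A was below SMC3 (log2 ratio -0.65, limma adjusted p = 0.017), and the STAG excess was 0.33 and not called (limma adjusted p = 0.24). On this scale the means were 13.8 CPM per kb for SMC1A, 21.9 for SMC3, 22.8 for RAD21 and 20.0 for STAG2. Across 10477 genes with at least 10 pooled counts and an annotated length, longer transcripts had somewhat lower levels (Spearman rho -0.25 across genes, which are not independent replicates). The median was 59.9 CPM for genes with transcripts under 1 kb and 14.1 CPM for those over 8 kb. Its part in these ratios was not tested.

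**Figure D3:**
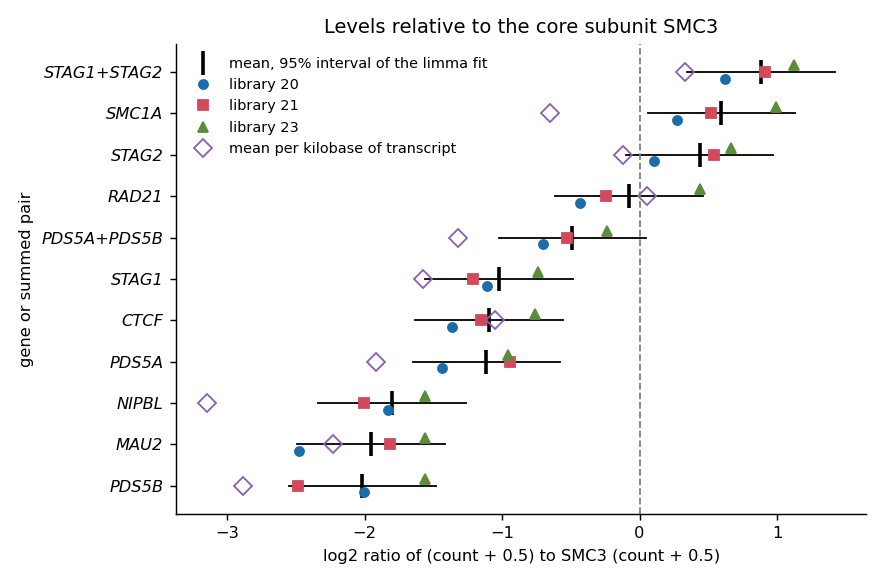
Log2 ratio of (count + 0.5) of each gene or summed pair (y axis) to SMC3 (x axis, 0 marks equal counts), per library (points), with the mean (tick) and the 95% interval of the limma fit (line); open diamonds give the mean per kilobase of transcript. STAG1, CTCF, PDS5A, NIPBL, MAU2 and PDS5B lie below 0 in each library, and the diamond of SMC1A (-0.65) lies on the other side of 0 from its mean per count (0.60).

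The members outside the core lay below SMC3. Of the 9 other members, 6 were called lower than SMC3 (STAG1, CTCF, PDS5A, NIPBL, MAU2 and PDS5B), beside 77.6% of all genes tested. CTCF, the protein at which cohesin loops end, had 41.3, 38.3 and 45.3 CPM, a mean of 41.6 ± 3.50 CPM, and stood below SMC3 (log2 ratio -1.09 ± 0.31, lower in 3 of 3 libraries, limma adjusted p = 8.5e-05). In counts this was 0.469-fold of SMC3, with an interval of 0.323 to 0.680. With CTCF as the reference of the fit, SMC3 was 2.13-fold of CTCF, with an interval of 1.61 to 2.83 (limma adjusted p = 0.0010). CTCF has an annotated transcript of 3.99 kb, close to that of SMC3. Per kilobase the log2 ratio of CTCF over SMC3 was -1.05 (limma adjusted p = 0.00012). PDS5A and PDS5B summed to 0.713-fold of SMC3 (log2 ratio -0.49 ± 0.24, limma adjusted p = 0.083, lower in 3 of 3 libraries), which was not called. The ratio was called without library 23 (log2 ratio -0.61, limma adjusted p = 0.032). In a setting added after the data were seen, moderated variances of the PDS5 sum and of SMC3 were summed. There the ratio was also called (moderated limma variances, adjusted p = 0.00038). That spread was itself moderated over genes (78.4 degrees of freedom from 3 libraries), so it is not each gene's own spread.

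The loader genes were among the lowest. NIPBL, the large subunit that binds DNA and drives the cohesin ATPase and the gene most often mutated in Cornelia de Lange syndrome, had 29.8, 21.04 and 25.9 CPM, a mean of 25.6 ± 4.396 CPM. MAU2, which wraps the amino-terminal end of NIPBL, had 19.0, 24.0 and 25.9 CPM, a mean of 22.97 ± 3.58 CPM. The levels overlapped, with NIPBL higher in library 20, MAU2 higher in library 21 and 40 counts of each in library 23. NIPBL over MAU2 gave a mean log2 ratio of 0.15 ± 0.44, a 1.11-fold ratio with an interval of 0.804 to 1.53 (limma adjusted p = 0.54), and NIPBL took 52.6 ± 7.56% of the pair's counts. The annotated NIPBL transcript is 10.4 kb long and that of MAU2 4.99 kb, and per kilobase NIPBL was lower (log2 ratio -0.91, limma adjusted p = 0.00024). MAU2 overlaps SUGP1 on the opposite strand, which had 11, 19 and 18 counts. On the scale of the spikes NIPBL stood for 13.4 ± 2.59 and MAU2 for 12.0 ± 2.23 molecules per cell, against 71.1 ± 12.1 for SMC1A and 46.9 ± 7.44 for SMC3.

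Ordered by mean level, the genes ran SMC1A, STAG2, SMC3, RAD21, STAG1, CTCF, PDS5A, NIPBL, MAU2 and PDS5B. Of the 9 pairs of neighbours in this order, 2 passed the test, with the lower gene as the reference of a fit over all genes. RAD21 stood above STAG1 by 0.94 in log2 ratio (limma adjusted p = 0.00017), and PDS5A stood above NIPBL by 0.69 (limma adjusted p = 0.013). The mean levels ran from 85.4 to 135 CPM above the first of these steps, from 41.0 to 44.1 CPM between them, and from 22.4 to 25.6 CPM below the second. Above the first step SMC1A was also called higher than SMC3, as given above, and than RAD21 (0.67, limma adjusted p = 0.012). Neighbours not called in these fits were SMC1A and STAG2 (0.16, limma adjusted p = 0.25), STAG2 and SMC3 (0.44 ± 0.29, STAG2 higher in 3 of 3 libraries, limma adjusted p = 0.12), SMC3 and RAD21, STAG1 and CTCF, CTCF and PDS5A, NIPBL and MAU2, and MAU2 and PDS5B. The order was set by the same counts, so these calls describe its steps and are not independent of it. Over all 45 pairs of members, 35 passed, with the higher gene of each pair set by the same counts. Most genes also differed from a given member, as against SMC3 11.8% of all genes were called higher and 77.6% lower. In the higher direction alone, the share of all genes called was 10.4% against STAG2, 12.6% against RAD21, 24.7% against CTCF, 24.8% against PDS5A, 32.9% against NIPBL and 36.3% against MAU2. The step from PDS5A to NIPBL lost its call without library 21 (log2 ratio 0.50, limma adjusted p = 0.061) and with no minimum count (limma adjusted p = 0.057). STAG2 was called above SMC3 without library 20 (0.60, limma adjusted p = 0.019) and with a trend in the variance (limma adjusted p = 0.022). It was also called with summed moderated variances, a spread likewise moderated over genes (moderated limma variances, adjusted p = 0.00031).

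Across the 3 libraries of the same cells, 0 of the 10 members differed beyond counting error, where 0.560% of 11424 genes did between at least 1 pair of libraries (2-sided exact binomial tests of each pair of libraries, Benjamini-Hochberg adjusted over every gene and pair). At an unadjusted p under 0.05 there were 4 members (SMC1A, SMC3, RAD21 and PDS5B), named after their values were seen, beside 15.9% of all genes. A chi-square test over the 3 libraries also called 0 members after adjustment, beside 83 of the 11424 genes. At an unadjusted chi-square p under 0.05 there were 2 members, beside 9.26% of all genes. RAD21 had the lowest p-value of the members, with 96 counts in library 21 and 162 in library 23 (exact binomial adjusted p = 0.35). When the spikes set the scale in place of endogenous counts, RAD21 was called higher in library 23 than in library 21, by 1.61-fold (exact binomial adjusted p = 0.030), while 250 genes in all were called. The coefficient of variation of RAD21 over the libraries was 20.1%, against 8.94% expected from counting alone, and that of STAG2 was 4.10%, against 7.56%. For PDS5B it was 28.6%, against 17.4%.

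The wider machinery was read from lists of 40 genes, of which 34 had enough counts to be tested against SMC3. Of these, 7 were called higher and 21 lower than SMC3, and 6 were not called, where 11.8% of all genes tested were called higher and 77.6% lower. Of 9 genes for release, acetylation and protection of cohesin, 0 were called higher and 7 lower, a share of lower calls near the 77.6% of all genes, with a median log2 ratio to SMC3 of -1.40, against -2.18 over all genes tested. WAPL, which opens the ring together with PDS5 and is listed under its older name WAPAL, had 33.8 ± 4.97 CPM, and CDCA5, the sororin that antagonizes WAPL, had 51.9 ± 2.31 CPM. The acetyltransferases of SMC3, ESCO1 and ESCO2, had 20.3 ± 3.19 and 17.7 ± 4.31 CPM, and HDAC8, which removes the acetyl groups, had the highest level of the list at 65.3 ± 2.50 CPM. The shugoshins SGO1 and SGO2, which guard centromeric cohesin, had 35.8 ± 4.06 and 21.1 ± 4.06 CPM.

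**Figure D4:**
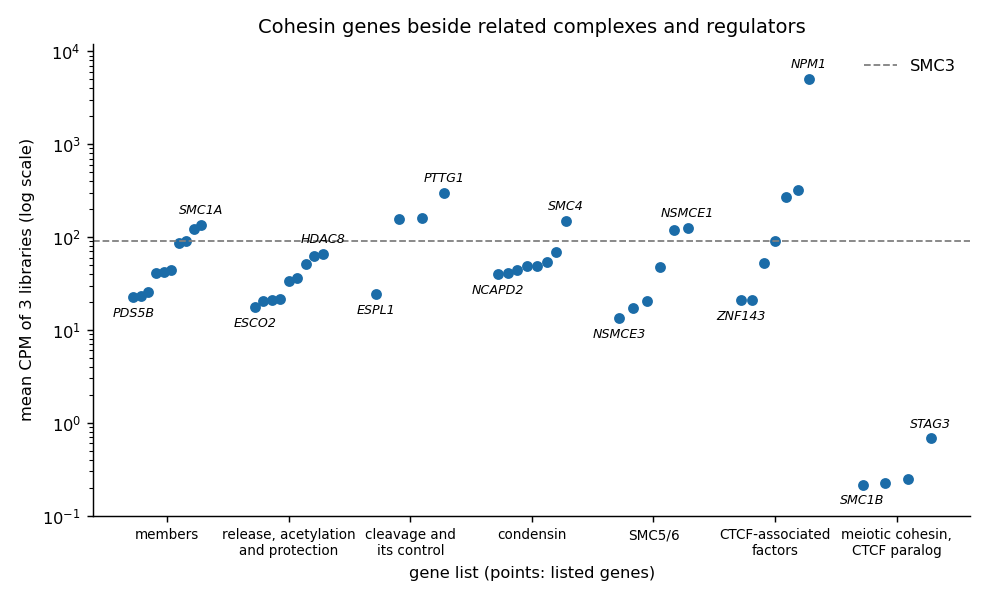
Mean level over the 3 libraries (y axis, CPM on a log scale) of each listed gene (points) in the cohesin set and in 6 related lists (x axis), with the lowest and highest gene of each list named; the dashed line marks SMC3. The meiotic subunits and the CTCF paralog lie below 1 CPM, and PTTG1 and NPM1 lead their lists.

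Genes listed for the cleavage of cohesin and its control split. PTTG1, the securin that holds separase inactive, had 299.8 ± 8.45 CPM and was called higher than SMC3, as were the mitotic kinases PLK1 (155 ± 9.05 CPM) and AURKB (161 ± 26.3 CPM), whereas the separase gene ESPL1 had 24.5 ± 5.14 CPM and was called lower. PTTG2 was not listed. Germline forms were near the level of 1 count. STAG3 had 3 counts in library 20 and none in the other two, SMC1B, REC8 and CTCFL, the germline paralog of CTCF, had 1 count each in all libraries together, and RAD21L1 was not listed.

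Condensin, the related SMC complex that compacts mitotic chromosomes, had 8 of 8 genes above 10 CPM, beside 44.6% of all listed genes. Its ATPase SMC4 had 149 ± 3.58 CPM and was called higher than SMC3, 6 of 8 genes were called lower (77.6% of all genes were), among them SMC2 at 54.5 ± 9.30 CPM and NCAPD2, the lowest, at 40.04 ± 7.52 CPM, and NCAPG was not called. In the SMC5/6 complex, which acts in DNA repair, 0 of 6 genes were called higher and 4 lower than SMC3, beside 11.8% and 77.6% of all genes. Its ATPases SMC5 and SMC6 had 17.4 ± 1.404 and 20.5 ± 3.66 CPM, NSMCE3, listed under its older name NDNL2, was lowest at 13.5 ± 6.20 CPM, and the subunit NSMCE1 had 125 ± 8.48 CPM. Among factors that share sites or partners with CTCF, 3 of 7 were called higher than SMC3 and 3 lower, beside 11.8% and 77.6% of all genes. NPM1 (5077 ± 268 CPM), MAZ (324 ± 36.6 CPM) and PARP1 (269 ± 14.6 CPM) were higher, the zinc finger gene ZNF143 had 21.1 ± 3.26 CPM, and YY1 had 91.8 ± 7.15 CPM, near SMC3.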

How the data were processed

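The authors deposited 1 table of raw counts per gene for 3 libraries of 1 group, as raw whole numbers without normalization. The tools named are STAR 2.4.0a and cutadapt 1.2.1, and the build is hg19 (GRCh37), per the submitters' processing notes. Columns carry no replicate number and were used as unnumbered replicates. The counter, annotation, strand setting and collapsing of molecular identifiers were not given in the sources used here: a count may stand for a read or a molecule. Binomial intervals cover counting error only. The limma intervals rest on a spread among the 3 libraries that was moderated over genes, not on each ratio's own spread alone. The 80 rows of spiked controls were kept out of CPM.

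Ratios of 2 genes were taken within a library, with a pseudocount of 0.5, and tested with limma 3.58.1 (intercept only, 2-sided, called at an adjusted p of 0.05). Each reference gene had its own fit over all genes that reached 10 counts summed over libraries, and p-values were Benjamini-Hochberg adjusted within it. All ratios of a fit share the reference gene's error, so the moderated spread was 1 value for all genes against SMC3, RAD21, NIPBL and PDS5B, and p-values there rest on a spread pooled over genes. Against the other members the spread was moderated over genes as well. The interval and p-value of a pair of genes thus depend on which gene was the reference. Libraries were compared with an exact binomial test conditional on endogenous totals. Alternatives used edgeR 4.0.16, DESeq2 1.42.0, other filters, pseudocounts and fewer libraries. Scripts were tested on simulated data. Work was done in R 4.3.3 and Python 3.11.15.

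The 10 genes, the lists and the tests were chosen with earlier results of these data known. Genes are named by membership of the set or of a list, the highest and lowest of each list by rule. Transcript lengths and overlaps are from GENCODE v29 (GRCh38), from the APPRIS principal transcript where there is one, otherwise a coding one, the longest where several qualify, and promoters are from RefSeq (GRCh38.p14); neither is the build of the counts. The result of 1 further marker list is not reported here.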

Additional observations from a re-analysis of the deposited data

How the results depend on the processing

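Scaling cancels in ratios within a library, and the 10 levels moved by less than 1 SD under TMM, DESeq2 and spike-inclusive totals. Leaving out 1 of 3 libraries cannot move a mean by 1 SD, so that check of the levels could not fail. STAG2 over STAG1 and CTCF over SMC3 kept direction and call under each alternative run, including the t-test on summed moderated variances. With no minimum count, the fit also takes in genes with few counts, and calls were lost for PDS5A over PDS5B (log2 ratio 0.90) and SMC1A over SMC3 (0.60), and 1 neighbouring pair in place of 2 passed. PDS5A+PDS5B over SMC3 became a call at -0.49 with at least 30 pooled counts, with a trend and with summed moderated variances, and at -0.50 by an exact binomial test of pooled counts. The spike scale called 1 member between libraries in place of 0, and genes called between libraries numbered 114 with DESeq2 size factors and 250 with spikes, against 64.

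Per kilobase, a scale added after the data were seen, SMC1A over SMC3 was -0.65, RAD21 over SMC3 0.056, STAG1+STAG2 over SMC3 0.33, PDS5A+PDS5B over SMC3 -1.32 and NIPBL over MAU2 -0.91. On that scale 6 neighbouring pairs passed, and the order turned for SMC1A over STAG2 (-0.54), STAG2 over SMC3 (-0.12), SMC3 over RAD21 (-0.056), STAG1 over CTCF (-0.53) and NIPBL over MAU2 (-0.91). The counts are the same on both scales, so these turns come from the division by annotated transcript length alone. Whether that division suits counts taken at 5′ ends was not tested.

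When each library was left out in turn, log2 ratios ranged from 1.31 to 1.58 for STAG2 over STAG1, 0.58 to 1.07 for PDS5A over PDS5B, 0.40 to 0.76 for SMC1A over SMC3, -0.34 to 0.10 for RAD21 over SMC3, 0.77 to 1.02 for STAG1+STAG2 over SMC3, -0.61 to -0.38 for PDS5A+PDS5B over SMC3, -0.095 to 0.32 for NIPBL over MAU2 and -1.26 to -0.96 for CTCF over SMC3. Between 1 and 3 neighbouring pairs passed. Among neighbours, signs turned for SMC3 over RAD21 (-0.10 to 0.34), STAG1 over CTCF (-0.018 to 0.14), CTCF over PDS5A (-0.068 to 0.13), NIPBL over MAU2 (-0.095 to 0.32) and MAU2 over PDS5B (-0.24 to 0.33).

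Genes of a ratio were paired within each library, but no pairing of libraries was possible. There is 1 group, and the columns carry no replicate number. PDS5B, MAU2 and NIPBL rest on 99, 100 and 112 pooled counts, the lowest of the 10 genes.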
